A study of Homo sapiens with 9 samples.

Results

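The 10 genes described here encode the cyclins, cyclin-dependent kinases (CDKs) and CDK inhibitors that act in G1, the phase between cell division and DNA replication. They are the D-type cyclins CCND1 and CCND3, the E-type cyclins CCNE1 and CCNE2, the kinases CDK4, CDK6 and CDK2, and the inhibitors CDKN1A, CDKN1B and CDKN2C. The genes were given by name, and each symbol matched 1 Ensembl identifier, so they make up 10 of the 62703 genes listed. All 10 had enough counts to be tested, and the fewest in any library were the 51 counts of CCNE2 in a library at 30 µM.

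The cells were HepG2, an established line from a human liver tumour. They were left untreated or were exposed for 72 h to eliglustat, an inhibitor of glucosylceramide synthase, at 20 µM or at 30 µM. RNA was sequenced as 3 libraries per group, 9 in all, with the untreated cells as the only control, all from the same line. Nothing in the labels tells whether replicate libraries were grown as separate cultures, and every p-value here therefore measures only the spread between libraries, which can be technical.

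In G1, D-type cyclins bind CDK4 and CDK6, and E-type cyclins bind CDK2. These kinases phosphorylate the retinoblastoma protein RB1 and its relatives, which releases E2F transcription factors to switch on genes for DNA replication. Inhibitors of the INK4 family, such as CDKN2C, bind CDK4 and CDK6, whereas those of the CIP/KIP family, CDKN1A and CDKN1B, bind cyclin-CDK complexes and above all restrain CDK2. In hepatocytes, which seldom divide, cyclin D1 is the cyclin best known for bringing cells out of rest, and the locus is amplified in some liver tumours.

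The libraries held 21103757 to 26782810 counts in genes. Records outside single genes made up 40.6% to 44.0% of each library, and those with more than 1 alignment made up 12.4% to 12.8% in controls, 13.3% to 15.5% at 20 µM and 14.8% to 19.4% at 30 µM. All 10 hepatocyte markers were detected, with summed levels of 32870 to 34170 CPM in controls, 37050 to 37490 CPM at 20 µM and 41970 to 42450 CPM at 30 µM. This sum was carried by APOB, at means of 19950, 21520 and 27770 CPM, and the markers did not move together. Means of APOA2, TTR and SERPINA1 were also above controls at both doses, and those of ALB, AFP and FGB were below. Means of APOA1, TF and HNF4A were above controls at 20 µM and below at 30 µM. CPM, the usual unit of counts relative to the library total, was computed on totals scaled by the trimmed mean of M-values (TMM). Of the other markers, the leukocyte gene PTPRC and the fibroblast genes COL1A2 and DCN had 0 counts in every library. The summed fibroblast markers lay between 1.01 and 3.51 CPM and the endothelial ones between 3.96 and 6.34 CPM, while the leukocyte list was carried by LYZ, at a mean of 469 CPM in controls, 452 CPM at 20 µM and 655 CPM at 30 µM. The part of these shifts in the values below was not tested. In bulk RNA, fewer cells expressing a gene and less RNA per cell cannot be told apart.

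At 30 µM, the transcripts of both E-type cyclins, CDK2, CDK4 and the INK4 inhibitor CDKN2C were lower than in untreated cells, and that of the CIP/KIP inhibitor CDKN1A was about doubled. The D-type cyclin CCND1 fell slightly. CCND3, CDK6 and CDKN1B did not pass the test at either dose. At 20 µM only CDK2, CDKN1A and CCND1 passed it, and CDKN1A then moved the other way, downward.

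A gene was said to have changed where its Benjamini-Hochberg adjusted p, over all 17623 genes tested with edgeR's quasi-likelihood test, was under 0.05. At 20 µM, 0 of the 10 genes were higher and 3 were lower, beside 34.2% of all genes past the test (17.2% higher and 16.9% lower). At 30 µM, 1 was higher and 6 were lower, beside 60.8% of all genes (29.5% higher and 31.3% lower). At 30 µM against 20 µM, 1 was higher and 5 were lower, beside 57% of all genes (28% higher and 28.9% lower). The count of changed genes in this set therefore lay near the share over all genes in each comparison. The libraries of control and treated cells did not overlap for 4 of the 10 genes at 20 µM, beside 44.5% of all genes, and for 7 of them at 30 µM, beside 65%. Between the doses, 7 of the 10 did not overlap, beside 61.1% of all genes.

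The median log2 change of the 10 genes was -0.06 at 20 µM and -0.20 at 30 µM, beside 0.01 and -0.04 over all genes tested. The plot of changes against control shows genes that stayed near no change, genes that fell at the higher dose alone, CDK2, which fell at both, and CDKN1A, which moved from below to above. Scaling by library size alone shifted the median of all genes at 30 µM by -0.21 on the log2 scale, and with it 3530 genes were higher and 8022 lower at 30 µM, against 5192 and 5515 with TMM. Under that scaling CDK6 and CDKN1B were also called lower at 30 µM, so that 1 of the 10 genes was higher and 8 were lower. Between the doses that scaling also gave 1 higher and 8 lower, beside 3029 and 7690 of all genes.

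**Figure D1:**
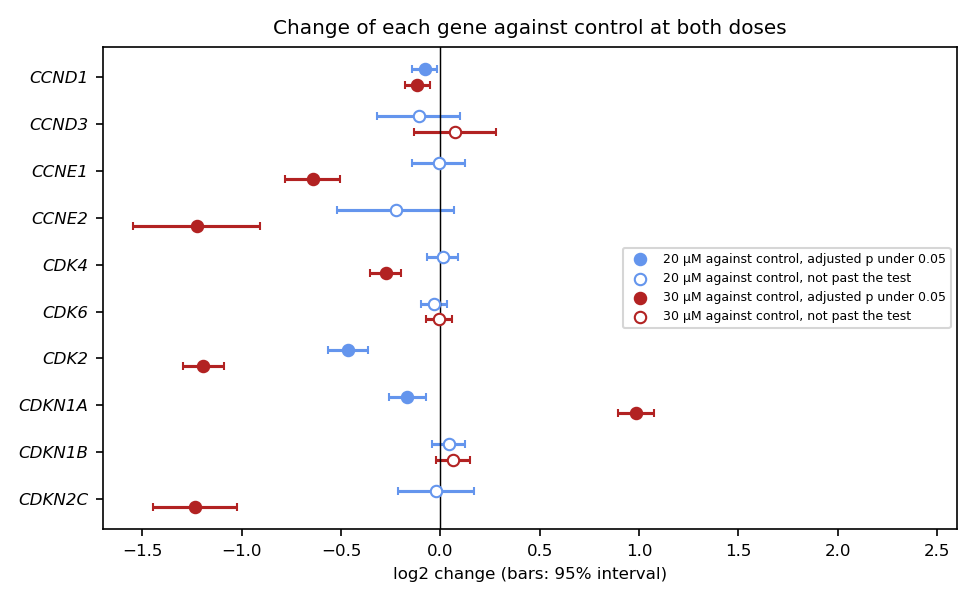
Log2 change against control (horizontal axis) of each gene at 20 µM (blue) and 30 µM (red), with bars for the 95% interval and filled points for an adjusted p under 0.05. CCNE2, CDK2 and CDKN2C reach log2 changes of -1.23, -1.19 and -1.24 at 30 µM, and CDKN1A reaches 0.98.

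The upstream sequences of the cyclin and the inhibitor that moved in opposite directions at 30 µM, CCNE1 and CDKN1A, are given below, since each has a single start in the RefSeq promoter table (GRCh38.p14), which held 7 of the 10 genes. Each is the 250 bases before the start, 5′ to 3′ on the strand of the gene, with matches to the searched letters in capitals. The CCNE1 window is chr19:29811741-29811990 on the plus strand, and 93 of its bases lie in an exon of CCNE1 in GENCODE 29. The CDKN1A window is chr6:36678464-36678713 on the plus strand, inside the longer gene span of that annotation, and 56 of its bases are exonic there.
CCNE1: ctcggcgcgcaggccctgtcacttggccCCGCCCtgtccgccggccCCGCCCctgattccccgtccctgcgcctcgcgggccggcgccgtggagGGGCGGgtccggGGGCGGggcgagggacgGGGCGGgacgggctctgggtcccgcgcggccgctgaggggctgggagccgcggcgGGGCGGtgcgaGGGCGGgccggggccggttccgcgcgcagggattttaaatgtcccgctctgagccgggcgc
CDKN1A: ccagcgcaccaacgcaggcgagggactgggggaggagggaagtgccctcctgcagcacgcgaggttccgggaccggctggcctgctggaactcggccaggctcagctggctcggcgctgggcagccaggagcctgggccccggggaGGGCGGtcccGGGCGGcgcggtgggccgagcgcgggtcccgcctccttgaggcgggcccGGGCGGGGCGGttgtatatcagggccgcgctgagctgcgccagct

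The capitals in both windows are GC boxes, the letters GGGCGG read on either strand, with 7 in CCNE1 and 4 in CDKN1A, of which the pair nearest the start shares a base. GC boxes are bound by the SP and KLF families. Such letters stood in 42.5% of the 34943 promoter windows of the same length in the table, and the base composition was 81.2% G or C in CCNE1 and 76.4% in CDKN1A. The search also covered E2F letters (TTTCCCGC, TTTCGCGC, TTTGCCGC and TTTGGCGC, in 2.77% of windows), the E box (CACGTG, 6.32%), the CRE (TGACGTCA, 1.63%), AP-1 (TGAGTCA and TGACTCA, 4.22%), CCAAT (32.0%) and the CHR (TTTGAA, 13.4%), each on both strands. None of these stood in the CCNE1 or CDKN1A window. The single CDK4 window held 3 GC boxes and 3 E boxes, the letters that MYC and related factors bind, and the single CDKN1B window held 1 GC box and 2 CCAAT letters. A match describes these letters only and is not a measured binding site.

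CCND1 (ENSG00000110092.4, chr11:69641087-69654474) encodes cyclin D1, the partner of CDK4 and CDK6 that growth factors induce. Its level was 373, 373 and 367 CPM in the 3 control libraries, 349, 351 and 355 CPM at 20 µM and 336, 350.1 and 340.3 CPM at 30 µM. Every treated library lay below every control, and the 20 µM and 30 µM libraries overlapped. At 30 µM it fell by 7.81% (log2 -0.12 ± 0.0312 SE, adjusted p = 0.00152). At 20 µM it fell by 5.34% (log2 -0.08 ± 0.0311, adjusted p = 0.0477), a call that was lost in 14 of 19 alternative analyses, where the adjusted p ran from 0.0526 to 0.182, against 0.0140 to 0.182 over all of them. The 2 doses differed by log2 -0.04 (95% interval -0.10 to 0.03, adjusted p = 0.311). Exons of LTO1 on the opposite strand cover 10.3% of the CCND1 exon bases. LTO1 had at most 392 counts, against at least 7257 for CCND1.

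CCND3 (ENSG00000112576.13, chr6:41934933-42050357) encodes cyclin D3, a D-type cyclin with the same kinase partners. Its libraries held 11.3, 9.38 and 10.2 CPM in controls, 8.80, 10.6 and 9.39 CPM at 20 µM and 10.7, 10.9 and 11.0 CPM at 30 µM. The control libraries overlapped with both treated groups, and the 30 µM libraries all lay above those at 20 µM. The change at 20 µM had a 95% interval of -0.32 to 0.10 on the log2 scale (adjusted p = 0.453), and that at 30 µM one of -0.13 to 0.28 (adjusted p = 0.552). Between the doses the log2 difference was 0.18 ± 0.102 (SE, adjusted p = 0.129), which missed the threshold.

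CDK4 (ENSG00000135446.17, chr12:57747727-57756013, minus strand) encodes the first kinase that D-type cyclins activate in G1. It was at 205, 211 and 216 CPM in controls, 203, 218 and 216 CPM at 20 µM and 184, 168.5 and 170.0 CPM at 30 µM. The 20 µM libraries spanned the controls, and all 3 libraries at 30 µM lay below both other groups. CDK4 fell by 17.4% at 30 µM (log2 -0.28 ± 0.0386, adjusted p = 1.74e-07). At 20 µM the log2 change was 0.01 (95% interval -0.07 to 0.09, adjusted p = 0.865). Exons of TSPAN31 on the opposite strand cover 43.2% of the CDK4 exon bases, so the split of reads between them rests on a strand setting that is not given in the sources used here. TSPAN31 itself was at 8.58 CPM in controls, 11.0 CPM at 20 µM (log2 0.36, adjusted p = 0.00851) and 8.90 CPM at 30 µM (log2 0.06, adjusted p = 0.691).

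CDK6 (ENSG00000105810.10, chr7:92604921-92836594, minus strand) encodes the other kinase of the D-type cyclins. Its level was 464, 461 and 460.3 CPM in controls, 466, 447 and 441 CPM at 20 µM and 460.2, 473.5 and 445 CPM at 30 µM, and all groups overlapped. The log2 change was -0.03 at 20 µM (95% interval -0.10 to 0.03, adjusted p = 0.497) and -0.01 at 30 µM (95% interval -0.07 to 0.06, adjusted p = 0.872). With library size alone as the scaling, the value at 30 µM was -0.22 (adjusted p = 6.11e-07). Relative to the shift of all genes under that scaling, -0.21, CDK6 again lay near the middle of the genes tested.

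CCNE1 (ENSG00000105173.14, chr19:29811898-29824308) encodes cyclin E1, which drives CDK2 at the entry into DNA replication and is itself an E2F target. The libraries held 38.0, 31.4 and 33.7 CPM in controls, 33.6, 35.3 and 33.8 CPM at 20 µM and 21.6, 21.2 and 23.4 CPM at 30 µM. The 20 µM libraries lay within the range of the controls, and those at 30 µM were all below. CCNE1 was 1.56-fold lower at 30 µM (log2 -0.64 ± 0.068, adjusted p = 5.35e-10). At 20 µM the log2 change was -0.01 (95% interval -0.14 to 0.12, adjusted p = 0.944). The step from 20 µM to 30 µM was -0.63 ± 0.0682 (adjusted p = 1.05e-09).

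CCNE2 (ENSG00000175305.18) encodes cyclin E2, the second partner of CDK2. Its levels were low, at 6.49, 6.54 and 6.86 CPM in controls, 6.42, 5.30 and 5.27 CPM at 20 µM and 3.05, 3.34 and 2.11 CPM at 30 µM, from 51 to 191 counts per library. The 20 µM libraries all lay just below the controls, and the log2 change there, -0.23 ± 0.144, did not pass the test (adjusted p = 0.245, 95% interval -0.52 to 0.07). At 30 µM it was 2.34-fold lower (log2 -1.23 ± 0.157, adjusted p = 3.01e-08), and between the doses it fell by a log2 value of 1.00 (adjusted p = 2.08e-06). Exons of INTS8 on the opposite strand cover 37.0% of the CCNE2 exon bases. INTS8 fell as well, by log2 -0.24 at 20 µM (adjusted p = 0.00487) and -0.54 at 30 µM (adjusted p = 2.78e-08), and its part in the CCNE2 values was not tested.

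CDK2 (ENSG00000123374.11, chr12:55966769-55972784) encodes the kinase of the E-type and A-type cyclins. Controls held 64.0, 62.4 and 62.7 CPM, the 20 µM libraries 45.6, 46.0 and 45.5 CPM and the 30 µM libraries 27.4, 28.2 and 27.05 CPM. The 3 groups formed separate steps with no overlap, and the libraries within each lay close together. CDK2 was 1.38-fold lower at 20 µM (log2 -0.465 ± 0.0483, adjusted p = 1.83e-09). It was 2.29-fold lower at 30 µM (log2 -1.19 ± 0.051, adjusted p = 4.21e-20), and 1.66-fold lower at 30 µM than at 20 µM (adjusted p = 5.86e-14). Of its exon bases, 14.5% are shared with AC025162.1 on the opposite strand, which had at most 1 count in any library, and 2.29% with PMEL, which had at most 17.

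**Figure D2:**
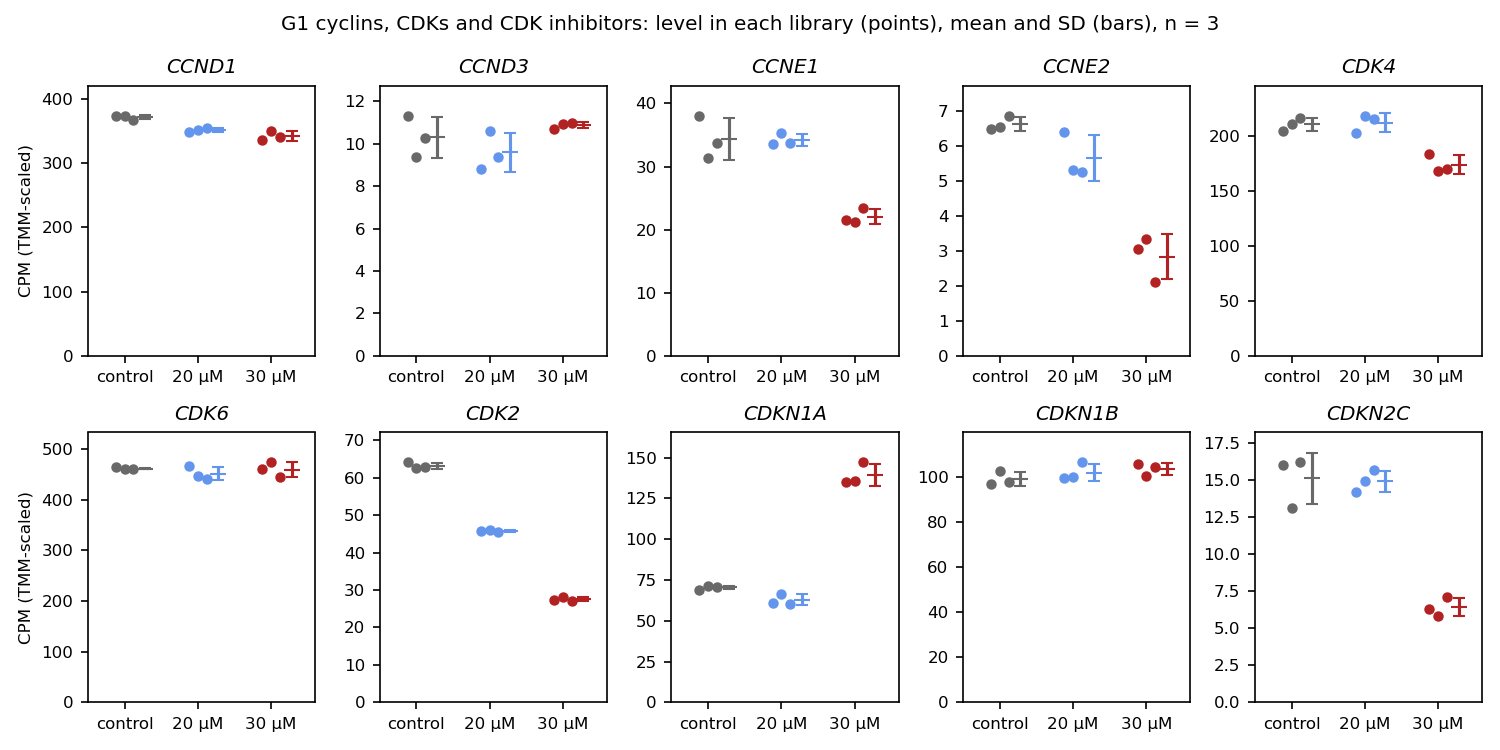
Level in CPM (vertical axis, from 0, TMM-scaled) of each gene in the 3 libraries of the control, 20 µM and 30 µM groups, with points for libraries and bars for the mean and SD. CDK2 steps down from 63.0 ± 0.852 to 45.7 ± 0.265 and 27.6 ± 0.598 CPM, CCNE1, CDK4 and CDKN2C are low only at 30 µM, and CDKN1A is high only there.

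CDKN1A (ENSG00000124762.14, chr6:36676460-36687339) encodes p21, a CIP/KIP inhibitor that many stress signals induce. It was at 69.2, 71.4 and 70.8 CPM in controls, 61.2, 66.7 and 60.5 CPM at 20 µM and 135, 136 and 147 CPM at 30 µM. All 20 µM libraries lay below the controls and all 30 µM libraries above them. At 20 µM it fell by 10.9% (log2 -0.17 ± 0.0462, 95% interval -0.26 to -0.07, adjusted p = 0.00478). At 30 µM it was 1.98-fold higher (log2 0.98 ± 0.0447, 95% interval 0.89 to 1.07, adjusted p = 2.45e-19). Against 20 µM, the 30 µM libraries were 2.22-fold higher (log2 1.15 ± 0.0452, adjusted p = 8.54e-21). Both calls held in every one of the 19 alternatives, with an adjusted p of at most 0.0339 for the fall at 20 µM. The antisense neighbour DINOL shares 4.79% of the exon bases and had at most 10 counts in any library.

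CDKN1B (ENSG00000111276.12, chr12:12715058-12722371) encodes p27, a CIP/KIP inhibitor whose amount is set largely by protein breakdown through SKP2. Its transcript was at 96.9, 103 and 97.9 CPM in controls, 99.9, 99.9 and 107 CPM at 20 µM and 106, 101 and 104 CPM at 30 µM, with all groups overlapping. The log2 change was 0.04 at 20 µM (95% interval -0.04 to 0.13, adjusted p = 0.486) and 0.06 at 30 µM (95% interval -0.02 to 0.15, adjusted p = 0.191). With library size alone the sign at 30 µM turned, to -0.15 (adjusted p = 0.00238), beside the shift of -0.21 over all genes.

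CDKN2C (ENSG00000123080.12, chr1:50960745-50974633) encodes p18, an INK4 inhibitor of CDK4 and CDK6. Controls held 16.1, 13.1 and 16.2 CPM, the 20 µM libraries 14.2, 14.9 and 15.7 CPM and the 30 µM libraries 6.34, 5.86 and 7.10 CPM. The 20 µM values lay within the controls, and every library at 30 µM was far below. CDKN2C was 2.36-fold lower at 30 µM (log2 -1.24 ± 0.104, adjusted p = 2.31e-12), the opposite direction to CDKN1A. At 20 µM the log2 change was -0.02 (95% interval -0.21 to 0.17, adjusted p = 0.897).

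Whether the change grew in proportion to dose was tested as the log2 change at 30 µM minus 1.5 times that at 20 µM, with untreated cells as dose 0. Of the 10 genes, 1 departed upward and 5 downward, beside 48.1% of all genes (24% upward and 24.1% downward). With library size alone, 1 of the set departed upward and 8 downward, beside 2554 and 6423 of all genes. CDKN1A departed by 1.23 ± 0.0614 (adjusted p = 1.35e-17). CDKN2C departed by -1.20 ± 0.132 (adjusted p = 2.50e-09), CCNE2 by -0.89 ± 0.203 (adjusted p = 0.00044) and CCNE1 by -0.63 ± 0.0881 (adjusted p = 3.29e-07). Even CDK2, which had already fallen at 20 µM, fell at 30 µM by more than in proportion to dose, with a departure of -0.50 ± 0.0669 (adjusted p = 1.56e-07). The departure of CDK4 was -0.29 ± 0.0507 (adjusted p = 1.15e-05). CCND1, in contrast, had a departure of 0.00 with a 95% interval of -0.08 to 0.09 (adjusted p = 0.985), and CCND3, CDK6 and CDKN1B did not pass the test.

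Levels of different genes were compared per kilobase of merged exons in GENCODE 29, which need not be the annotation of the counts. These lengths include bases shared with opposite-strand genes, most of all in CDK4 (43.2%, with TSPAN31) and CCNE2 (37.0%, with INTS8). The strand setting is not given, and its part in the levels and ratios of these genes was not tested. In controls the order was CCND1 at 76.8 CPM per kilobase, CDK4 at 66.5, CDK6 at 37.6, CDKN1B at 35.3, CDKN1A at 23.1, CDK2 at 16.2, CCNE1 at 13.5, CDKN2C at 4.56, CCND3 at 1.78 and CCNE2 at 1.51. No neighbours in that order overlapped between their 3 libraries. At 20 µM CCNE1 (13.4 CPM per kilobase) stood above CDK2 (11.7), and CDK6 overlapped with CDKN1B. At 30 µM CDKN1A stood at 45.7 CPM per kilobase, above CDK6 (37.5) and CDKN1B (36.9), which overlapped with each other. CDKN2C had fallen to 1.94 CPM per kilobase, where it overlapped with CCND3 at 1.87.

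**Figure D3:**
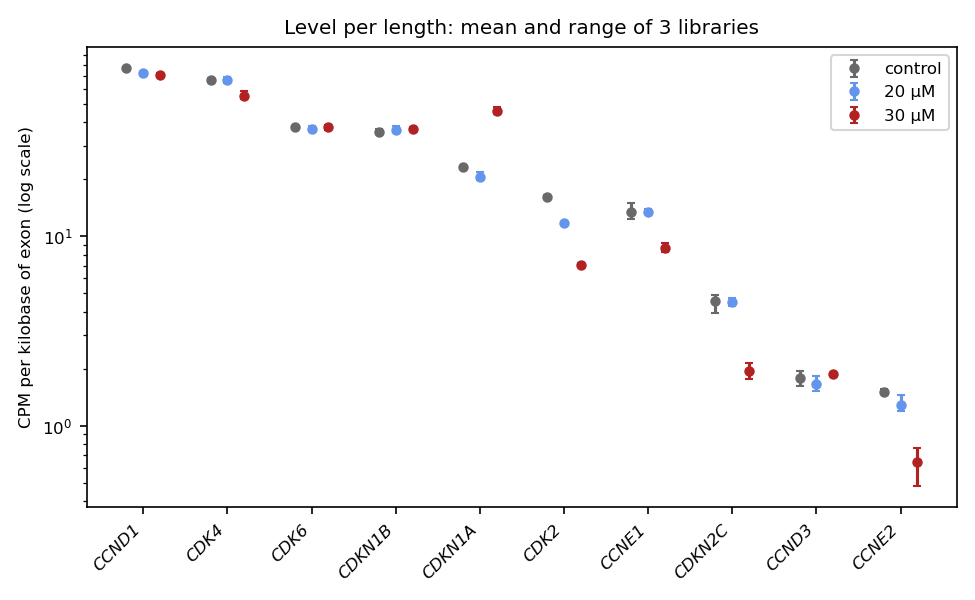
Level per kilobase of exon (vertical axis, log scale) of the 10 genes, ordered by their control mean, with points for the mean and bars for the range of 3 libraries. CCND1 and CDK4 lead in all 3 groups, and CDKN1A climbs past CDKN1B and CDK6 at 30 µM.

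Pairs of genes with the same kind of role were compared within each library, per kilobase and with no test. The ratio of CDKN1A to CDKN1B was 0.658, 0.639 and 0.666 in controls, 0.565, 0.615 and 0.523 at 20 µM and 1.18, 1.24 and 1.30 at 30 µM, so that it was above 1 in all 30 µM libraries and below 1 in all others. The ratio of CDK4 to CDK6 was 1.71, 1.77 and 1.82 in controls and 1.55, 1.38 and 1.48 at 30 µM, with no overlap. That of CCND1 to CCND3 averaged 43.5 ± 4.09 (SD, n = 3) in controls and 37.8 ± 0.633 at 30 µM. The ratio of CCNE1 to CCNE2 was 10.1, 8.29 and 8.47 in controls and 12.2, 10.9 and 19.2 at 30 µM, where the highest value came from the library with 51 counts of CCNE2.

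**Figure D4:**
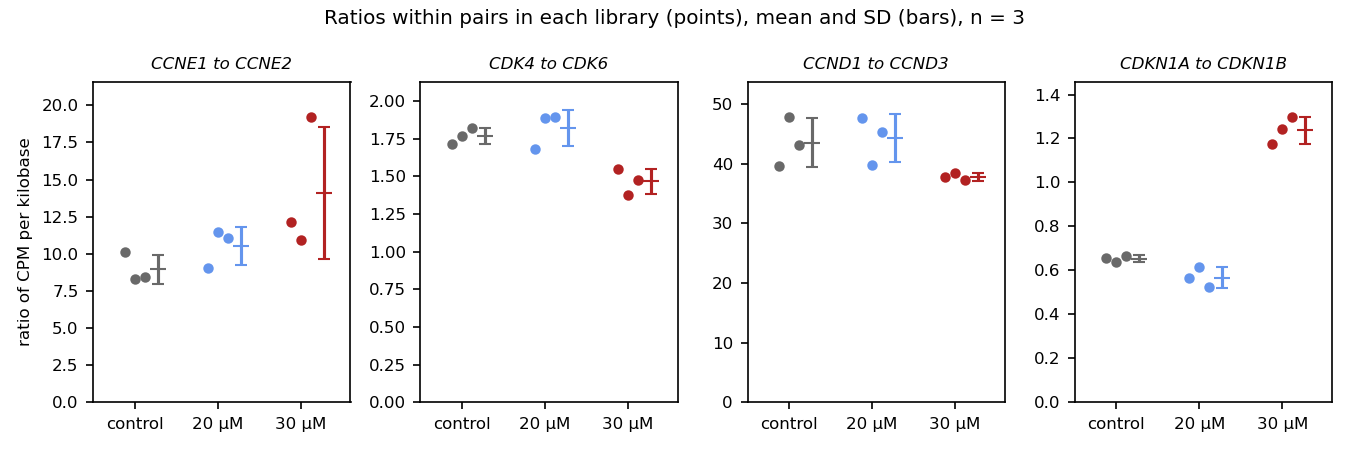
Ratio of CPM per kilobase (vertical axis, from 0) within 4 pairs in each library of the control, 20 µM and 30 µM groups, with points for libraries and bars for the mean and SD. The ratio of CDKN1A to CDKN1B rises from 0.654 ± 0.0143 in controls to 1.24 ± 0.0609 at 30 µM, and that of CCNE1 to CCNE2 varies most at 30 µM.

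For genes of the set whose log2 change at 30 µM was at least 1 in size, the nearest profiles were sought among 10138 protein-coding genes of at least 5 CPM. Nearness was the root mean square difference of log2 CPM over the 9 libraries, each gene relative to its control mean. The nearest to CDK2 were KIFC1 (difference 0.0436), FANCA (0.0449) and MKI67 (0.0492). The nearest to CDKN2C were EMX1 (0.0779), SLC23A1 (0.0897) and DGKK (0.107). The nearest to CCNE2 lay farther off, with MORN1 at 0.141, ASTN2 at 0.143 and HP at 0.145. The difference includes the spread between libraries, and CCNE2 had only 51 to 191 counts in each. How much of its larger differences came from these low counts was not tested. CDKN1A was just under the limit and was added after its values were seen, and its nearest were CDR2 (0.0507), BCL2L1 (0.0511) and CCNJL (0.0641).

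The other genes of the pathway were described by lists of known members. Their counts stand beside 17.2% higher and 16.9% lower over all genes at 20 µM and 29.5% and 31.3% at 30 µM, and their medians beside 0.01 and -0.04. Of 8 further G1 cyclin, CDK and inhibitor genes, 6 were tested. CDK3, with at most 6 counts in any library, and CDKN1C, with at most 1, were not, and both were named after their counts were seen. At 20 µM 1 rose and 1 fell, and at 30 µM 4 rose and 1 fell, with medians of 0.15 and 0.55. Inhibitors of the INK4 family led the rise, opposite to their relative CDKN2C. CDKN2B, which encodes p15, went from 0.833 ± 0.155 CPM in controls to 2.18 ± 0.151 at 20 µM (log2 1.40, adjusted p = 4.25e-07) and 18.2 ± 1.29 at 30 µM (log2 4.46, adjusted p = 9.52e-23). CDKN2A, the gene for p16 and ARF, rose from 3.53 ± 0.517 to 11.1 ± 1.11 CPM at 30 µM (log2 1.66, adjusted p = 6.25e-13), and CDKN2D, for p19, from 4.04 ± 0.550 to 7.35 ± 0.409 CPM (log2 0.86, adjusted p = 3.22e-06). The antisense gene CDKN2B-AS1 shares 7.88% of the CDKN2A exon bases and had at most 52 counts. It rose as well at 30 µM, from 0.270 ± 0.0182 to 1.54 ± 0.523 CPM (log2 2.50, adjusted p = 1.32e-06). Its part in the CDKN2A values was not tested. CCNC, for cyclin C, fell at 20 µM (log2 -0.17, adjusted p = 0.00376) and rose at 30 µM (log2 0.25, adjusted p = 1.40e-05), a rise that library size alone reduced to 0.04 (adjusted p = 0.51).

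Of 9 kinases and phosphatases that act on CDKs, 0 rose and 7 fell at 20 µM, and 2 rose and 5 fell at 30 µM, with medians of -0.33 and -0.77. Upper-quartile factors gave 0 and 6 at 20 µM, and library size alone gave 2 and 6 at 30 µM. CDC25A, the phosphatase that activates CDK2, fell from 79.3 ± 1.53 to 54.7 ± 1.88 CPM at 20 µM (log2 -0.54, adjusted p = 3.20e-11) and 32.0 ± 0.437 at 30 µM (log2 -1.31, adjusted p = 9.74e-22). The mitotic phosphatase gene CDC25C, the inhibitory kinase gene PKMYT1 and the phosphatase gene CDKN3 fell at both doses, by log2 values of -1.45, -1.28 and -1.15 at 30 µM. WEE1, whose kinase inhibits CDKs by phosphorylation, went against them at the higher dose, with a log2 change of -0.13 at 20 µM (adjusted p = 0.0339, and 0.0624 with upper-quartile factors) and 0.87 at 30 µM (adjusted p = 7.11e-18). The other gene that rose at 30 µM was the CDK-activating kinase gene CDK7, named after its values were seen. It went from 26.4 ± 1.93 CPM in controls to 40.0 ± 2.64 at 30 µM (log2 0.60, adjusted p = 9.85e-10).

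Of 16 subunits of ubiquitin ligases that act on these proteins, 4 rose and 7 fell at 20 µM, and 6 rose and 5 fell at 30 µM, with medians of -0.13 and -0.04. The called share at 30 µM lay near the 60.8% of all genes. This split moved with the scaling, to 3 and 9 at 20 µM and 3 and 10 at 30 µM with library size alone, and to 5 and 8 at 30 µM with upper-quartile factors. SKP2, which targets p27, fell from 143 ± 4.89 to 94.6 ± 2.86 CPM at 20 µM (log2 -0.59, adjusted p = 1.94e-13) and 40.0 ± 0.787 at 30 µM (log2 -1.84, adjusted p = 5.58e-27). DTL, the receptor of the ligase that targets p21 and CDT1, fell by log2 -0.54 and -1.75 (adjusted p = 2.98e-10 and 1.71e-23). AMBRA1, which targets D-type cyclins, rose by log2 0.27 and 0.60 (adjusted p = 1.31e-05 and 1.68e-13), and FBXW7, which targets cyclin E, rose at 30 µM by 0.58 (adjusted p = 4.94e-09). RNF123, which acts on p27, rose by 0.37 at 20 µM (adjusted p = 8.13e-09).

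Of 13 genes for RB1, its relatives and the E2F and DP factors, 1 rose and 5 fell at 20 µM, and 2 rose and 9 fell at 30 µM, with medians of -0.12 and -0.37. Upper-quartile factors gave 2 and 5 at 20 µM, and library size alone gave 1 and 7 at 20 µM and 2 and 11 at 30 µM. The repressor genes E2F8 and E2F7 fell at 20 µM (log2 -0.61 and -0.43, adjusted p = 2.54e-07 and 3.30e-06) and further at 30 µM (log2 -2.48 and -1.87, adjusted p = 2.71e-21 and 6.82e-21). At 30 µM the activator E2F2 fell by log2 -2.14 (adjusted p = 8.61e-19), to 4.39 ± 0.630 CPM. The 2 genes that rose there, E2F3 and E2F6, were named after their values were seen. E2F3 went from 58.2 ± 3.22 CPM in controls to 79.7 ± 0.910 at 30 µM (log2 0.45, adjusted p = 2.78e-10). E2F6 rose by log2 0.41 at 30 µM (adjusted p = 1.77e-06). RBL1, a relative of RB1 that is itself an E2F target, fell by -0.47 and -1.31 (adjusted p = 5.93e-09 and 2.80e-20), and TFDP1, the usual partner of E2F proteins, by -0.48 and -0.83 (adjusted p = 1.54e-11 and 1.77e-18). RB1 itself, named after its values were seen, was at 63.4 ± 0.603 CPM in controls, 63.0 ± 3.03 at 20 µM and 63.3 ± 2.68 at 30 µM, with no call.

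All 24 G1/S genes under E2F, which include genes of replication, nucleotide synthesis and the checkpoint, fell at 20 µM and all 24 fell at 30 µM, with medians of -0.54 and -1.48, and this held under each of the 3 other scalings. MCM4, a subunit of the replicative helicase, fell from 292 ± 3.39 to 193 ± 2.08 CPM at 20 µM (log2 -0.60, adjusted p = 1.16e-15) and 116 ± 1.12 at 30 µM (log2 -1.33, adjusted p = 3.16e-26). The helicase subunits MCM5 and MCM3 fell by log2 -1.69 and -1.44 at 30 µM, and TYMS, which makes thymidylate, by -0.52 and -1.52 at the 2 doses. CCNA2, the cyclin that follows cyclin E on CDK2, fell by -0.69 and -1.42 (adjusted p = 6.07e-15 and 2.68e-24), and RRM2, for ribonucleotide reductase, fell by -0.58 at 20 µM (adjusted p = 1.09e-14).

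Of 15 genes of G2 and mitosis, CCNA2 again among them, 0 rose and 15 fell at 20 µM, and 0 rose and 14 fell at 30 µM, with medians of -0.69 and -1.24. The exception at 30 µM was CKS2, a CDK subunit named after its values were seen, with log2 -0.11 (adjusted p = 0.0898). Upper-quartile factors called it lower as well (adjusted p = 0.00884), and so did library size alone, under which all 15 fell at 30 µM. TPX2 and AURKA, which act together on the spindle, fell by log2 -0.76 and -0.71 at 20 µM, the mitotic kinase gene PLK1 by -0.77 and CCNB1, the cyclin of CDK1, also by -0.77. MKI67, the proliferation marker, fell from 709 ± 40.2 CPM in controls to 307 ± 9.86 at 30 µM (log2 -1.21, adjusted p = 7.86e-24).

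Of 28 genes for transcription factors known to act on CDKN1A, CDKN1B or CCND1, 27 were tested. TP63 had 0 counts in every library. At 20 µM 15 rose and 3 fell, and at 30 µM 18 rose and 3 fell (17 and 8 with library size alone), with medians of 0.14 and 0.56. The immediate-early gene EGR1 went from 35.1 ± 2.25 to 113 ± 1.34 CPM at 20 µM (log2 1.68, adjusted p = 1.12e-19) and 744 ± 46.4 at 30 µM (log2 4.41, adjusted p = 9.44e-31). KLF6, of the KLF family, went from 76.0 ± 4.22 to 144 ± 5.22 and 931 ± 10.8 CPM (log2 0.92 and 3.62, adjusted p = 7.93e-19 and 2.06e-36). FOS, a subunit of AP-1, rose by log2 1.94 and 4.16 (adjusted p = 4.71e-16 and 4.98e-28), and the orphan receptor gene NR4A1 by 1.02 and 3.11.

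**Figure D5:**
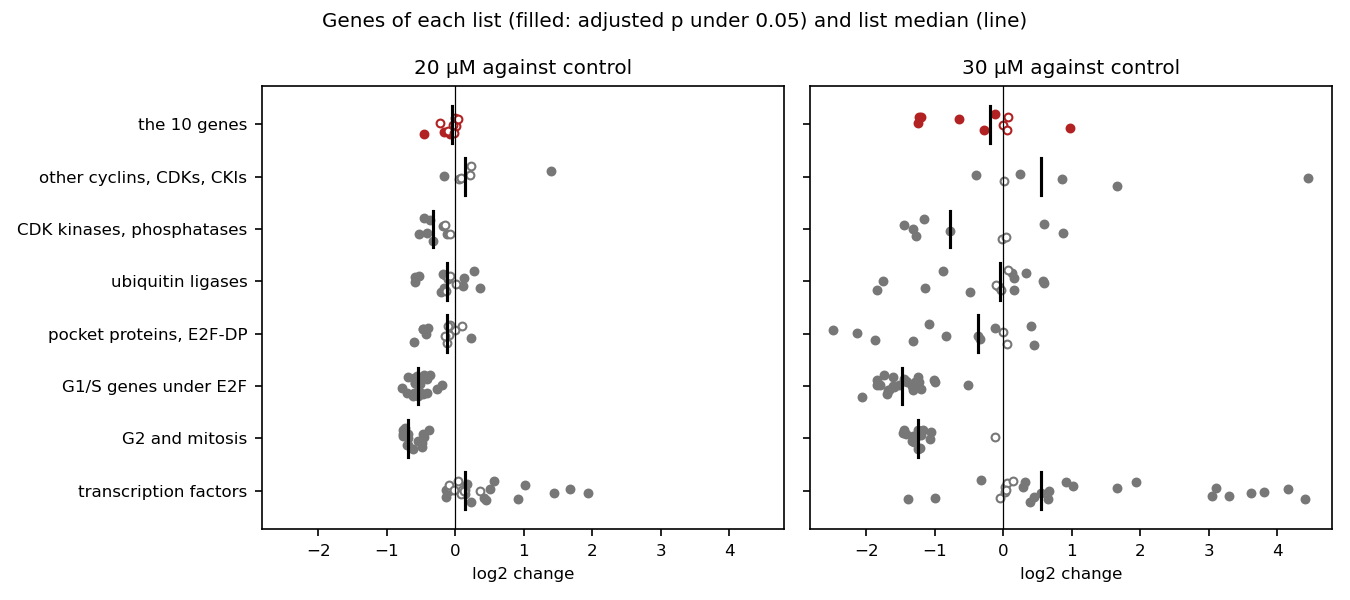
Log2 change against control (horizontal axis) at 20 µM (left) and 30 µM (right) of the 10 genes (red) and of the genes in each list (grey), filled where the adjusted p was under 0.05, with a line at each median. The G1/S and mitosis lists lie wholly to the left in both panels, with medians of -1.48 and -1.24 at 30 µM, and most transcription factors lie to the right.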

How the data were processed

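Each deposited file lists raw read counts per gene. The submitters' processing notes name FastQC, STAR 2.7.10a, HTSeq and the hg38 build as what the authors used. Neither the annotation release nor the strand setting is given in the sources used here. The labels give the molecule as polyA RNA but describe depletion of ribosomal RNA from total RNA. A 10 µM dose in the series text was not analysed here, and whether a further 48 h of incubation applies is unstated. HTSeq's closing totals, 40.6% to 44.0% of records, were kept out of library sizes and tests.

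After filterByExpr and TMM scaling, all 9 libraries entered 1 fit with a mean for each group, using edgeR 4.0.16 in R 4.3.3 (robust quasi-likelihood), with Benjamini-Hochberg adjustment at 0.05. Intervals are at 95%. Libraries of a group differed by more than counting noise (chi-square per gene from 2.10 to 7.94), so each counted as 1 sample.

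The 10 genes and the lists were chosen with earlier results of these data known. From each list and comparison with control, up to 4 protein-coding genes of at least 5 CPM past the test were named, by smallest p. Positions, exon lengths and overlaps came from GENCODE 29 (GRCh38).

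On simulated data with 200 changed genes in each of 3 draws over 17623 genes, false calls made up 9.42% of calls at 20 µM, 7.25% at 30 µM, 9.62% between doses and 11.2% for the departure from proportion, above the 5% aimed at. In the real comparisons 34.2% to 60.8% of genes passed the test, far more than were changed in the simulation. The simulated shares of false and of recovered calls therefore need not hold for the real data. Alternatives were other scalings, DESeq2 1.42.0, limma 3.58.1 (voom), other count filters, only the groups compared, a replicate block and libraries left out. Some items are withheld for evaluation and are not reported here.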

Additional observations from a re-analysis of the deposited data

Results flagged for a closer look

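Records with more than 1 alignment, which are outside the counts per gene and enter none of the comparisons, were more frequent in every treated library than in the controls. They made up at least 13.3% of records at 20 µM and at least 14.8% at 30 µM, against 12.4% to 12.8% in controls. The relation of this share to the levels of the 10 genes was not tested. Groups of 3 libraries were too small for the test of single outlying libraries.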

How the results depend on the processing

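Of 40 values for the 10 genes, 31 stayed on their side of the threshold in all 19 alternatives (18 for the departure from proportion) with no change of sign in a called value, and 9 did not. Values not called could change sign, as CCND3 at 30 µM (-0.14 with library size alone) and between doses (-0.01), and, at 20 µM, CCNE1 (-0.07 to 0.08), CDK4 (-0.02 to 0.04), CDKN1B (-0.01 to 0.07) and CDKN2C (-0.11 to 0.03). Library size alone reversed CDKN1B at 30 µM (log2 -0.15) and between doses (-0.17), CDK6 between doses (-0.17), and the departures of CCND1 (-0.18), CDK6 (-0.14) and CDKN1B (-0.18). It also called CDK6 at 30 µM (-0.22) and CCND1 between doses (-0.23), and upper-quartile factors called the latter too (-0.11). The call of CCND1 at 20 µM was lost in 14 alternatives, the replicate block among them (adjusted p = 0.0649), and in 8 of the 9 with a library left out (0.0526 to 0.137), which covers every library except the third at 20 µM. With each library left out in turn, genes past the test numbered 5273 to 6135 at 20 µM, 10061 to 10850 at 30 µM, 9276 to 10113 between doses and 7633 to 8382 for the departure, and those of the set 2 to 3, 7, 6 and 6. With the replicate number as a block they were 5952, 10635, 9955 and 8355, and 2, 7, 6 and 6 of the set. Deviations of same-numbered libraries correlated between -0.20 and 0.35, and not every library correlated best with its own number. The highest value was that of the third libraries at 20 µM and 30 µM. Whether same-numbered libraries shared a culture or a batch cannot be told from these values. The first control and the third library at each dose deviated together (0.33 to 0.35), and without those 3 libraries the set lost only the CCND1 call at 20 µM (adjusted p = 0.0827). CCNE2 had as few as 51 counts at 30 µM, which limits its precision.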
